A study of Mus musculus with 7 samples.

Results

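Dab2, Cdk5rap2, Gpc6, Dach1 and Mdga2 are 5 mouse genes whose surroundings held more regions of open chromatin found in Dll1+ tumor cells alone than regions found in Dll1- tumor cells alone. They were selected from the measured values themselves, by the count of Dll1+ only regions minus the count of Dll1- only regions, so that excess is described here and not tested. Open chromatin was mapped by ATAC-seq, in which a transposase inserts sequencing adapters into accessible DNA. Each region was given to the protein-coding gene with the transcription start site (TSS) nearest to the middle of the region, and 174 of the 119215 regions in the series fell to the 5 genes.

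Mammary tumors arose in mice with the MMTV-PyMT transgene, a polyoma middle T oncogene expressed in the mammary epithelium, and with mCherry as a reporter for Dll1, which encodes a ligand of Notch receptors. Both groups shared the transgene and the reporter, and both had been depleted of cells with CD45, CD31 or Ter119 at their surface, which mark blood cells, endothelium and red cells. The Dll1+ group was mCherry-positive (n = 3 samples) and the Dll1- group mCherry-negative (n = 4 samples), from 4 tumors of which 3 gave both groups. The age of the mice is not given in the sources used here. The values analyzed here were the authors' pooled peak list of each group, so no spread between replicates could be given for any value and no difference was tested.

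The genes have unrelated roles. Dab2 encodes a clathrin adaptor that brings receptors of the LDL receptor family into coated pits and also takes part in TGF-beta signaling. Cdk5rap2 encodes a centrosome protein that anchors gamma-tubulin complexes, and its loss in people causes a small brain. Gpc6 encodes a glypican, a heparan sulfate proteoglycan held to the cell surface by a lipid anchor, through which growth factors reach their receptors. Dach1 encodes a nuclear cofactor of the retinal determination network, working with the Eya proteins. Mdga2 encodes an anchored surface protein of the immunoglobulin superfamily that binds neuroligins and keeps neurexins from them. Regions of open chromatin far from a TSS often mark enhancers, which can act on genes other than the nearest, and nearest-TSS assignment does not show which gene a region serves.

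The strongest Dll1+ only region of each gene is shown first, as the 201 bases centered on its summit, because these windows carry the sequence that was open in one list and not called in the other. The windows lie at chr15:6296129-6296329 (Dab2), chr4:70262959-70263159 (Cdk5rap2), chr14:117380728-117380928 (Gpc6), chr14:97466544-97466744 (Dach1) and chr12:67090672-67090872 (Mdga2), on the plus strand of GRCm38. Capitals mark matches to the consensus sequences searched for, which are described further on.
Dab2: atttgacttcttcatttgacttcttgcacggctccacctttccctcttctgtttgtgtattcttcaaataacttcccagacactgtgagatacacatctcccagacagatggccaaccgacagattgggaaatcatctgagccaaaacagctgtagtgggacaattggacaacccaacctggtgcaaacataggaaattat
Cdk5rap2: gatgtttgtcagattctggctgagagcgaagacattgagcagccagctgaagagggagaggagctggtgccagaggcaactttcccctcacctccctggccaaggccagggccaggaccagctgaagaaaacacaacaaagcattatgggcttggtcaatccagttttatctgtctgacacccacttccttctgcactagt
Gpc6: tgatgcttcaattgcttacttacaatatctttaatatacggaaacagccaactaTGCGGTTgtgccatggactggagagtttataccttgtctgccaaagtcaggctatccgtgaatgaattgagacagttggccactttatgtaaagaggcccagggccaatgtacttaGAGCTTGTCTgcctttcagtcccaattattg
Dach1: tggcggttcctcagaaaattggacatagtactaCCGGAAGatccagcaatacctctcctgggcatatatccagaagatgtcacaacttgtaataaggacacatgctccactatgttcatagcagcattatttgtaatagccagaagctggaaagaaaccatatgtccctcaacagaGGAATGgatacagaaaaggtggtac
Mdga2: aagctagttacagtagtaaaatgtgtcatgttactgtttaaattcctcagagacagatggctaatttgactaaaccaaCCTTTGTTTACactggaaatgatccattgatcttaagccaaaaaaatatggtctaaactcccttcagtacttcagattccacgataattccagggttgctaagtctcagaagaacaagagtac

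The Gpc6 window held a RUNX match at bases 55 to 61 and a p63 match at bases 171 to 180. In the Mdga2 window a SOX match at bases 79 to 85 and a FOX match at bases 83 to 89 overlapped and read as a single run of capitals. The Dach1 window held an ETS and a TEAD match, and 100% of its bases were marked as repeats in the genome sequence, against 8.96% of the Dab2 window, 9.45% of the Cdk5rap2 window and 0% of the Gpc6 and Mdga2 windows. Reads in repeats can come from other copies, so the place of this Dach1 region is uncertain. No consensus was found in the Dab2 and Cdk5rap2 windows.

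Across the 5 genes, 66 regions were Dll1+ only (37.9% of 174), 16 were Dll1- only (9.20%) and 92 were shared, that is, had rows in both lists. Over the whole series 9.01% of regions were Dll1+ only and 24.6% were Dll1- only, the opposite balance. More Dll1+ only than Dll1- only regions were seen at 1969 of 17373 genes and the opposite at 8980. Cdk5rap2 had 15 Dll1+ only against 2 Dll1- only regions among 42, and Dab2 had 12 against 2 among 28. Gpc6 had 15 against 6 among 46, Dach1 had 12 against 3 among 36, and Mdga2 had 12 against 3 among 22. Within 50 kb of a TSS no excess was seen at Cdk5rap2 (1 against 1), Gpc6 (0 against 1) or Dach1 (1 against 1). When the TSSs of non-coding genes and pseudogenes also competed for regions, Dach1 had 0 against 1 and Cdk5rap2 had 1 against 0. With protein-coding TSSs and no limit on distance, the excess was 13 for Cdk5rap2, 10 for Dab2 and 9 for each of the other 3 genes, while the genes just outside the choice, Efna5 and Naaladl2, each had an excess of 8. Mdga2 was the gene at which Dll1+ only regions made up the largest share of the 5, at 54.5%.

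**Figure D1:**
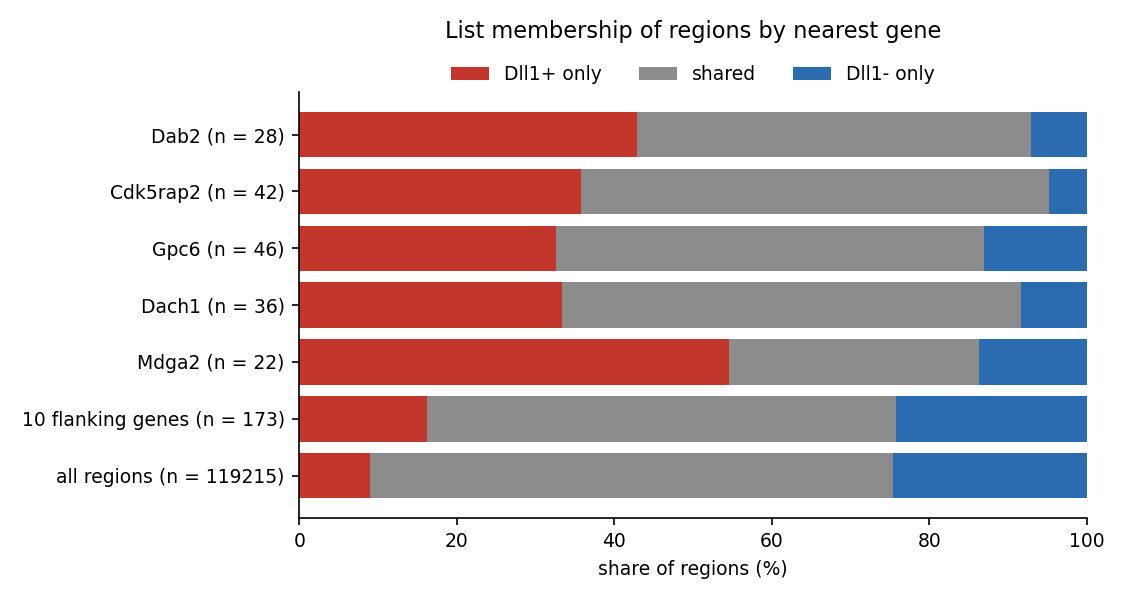
Share of regions (%) that were Dll1+ only, shared or Dll1- only, by nearest gene, for the 5 genes, the 10 protein-coding genes that flank them and all 119215 regions. The red Dll1+ only part spans 32.6% to 54.5% at the 5 genes, 16.2% at the flanking genes and 9.01% over all regions.

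The lists differed in depth. As worked back from fold and p-value, 3.74 reads were the genome-wide background of the Dll1+ list and 7.20 reads that of the longer Dll1- list. A region absent from a list was not called there, which does not show that it held no reads. Each of the 66 Dll1+ only regions had a fold enrichment, the ratio of reads at the summit to the background with 1 added to each, that would have corresponded to at least 18.0 reads (median 33.9) at the genome-wide background of the Dll1- list. The fewest reads of any Dll1- row at that background were 14, and the 1st percentile over all Dll1- rows was 17 reads. This conversion used the genome-wide background, although 9 of the 66 lay on a local background above 1.5 times that level. A median of 40.4% of Dll1- rows had a lower fold than these regions had in the Dll1+ list, with a range from 7.08% to 81.8%. Why the regions were not called in Dll1- was not tested.

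The Dll1+ only regions were weak compared with shared regions. Their fold ran from 2.32 to 9.95 with a median of 4.26, against 4.01 over all 10744 Dll1+ only regions. By rank within the Dll1+ list their median percentile was 33.4, where percentile 100 is the highest fold, against 29.4 over all Dll1+ only regions. The 92 shared regions had a median percentile of 78.4 in the Dll1+ list. A fold at or above the Dll1+ list's median was reached by 14 of the 66 (21.2%) against 15.4% of all Dll1+ only regions. These 14 comprised 5 at Gpc6, 4 at Mdga2, 2 each at Cdk5rap2 and Dach1, and 1 at Dab2. Reads at the summit, pooled over the 3 samples, ranged from 10 to 61 with a median of 22, the same median as over all Dll1+ only regions.

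**Figure D2:**
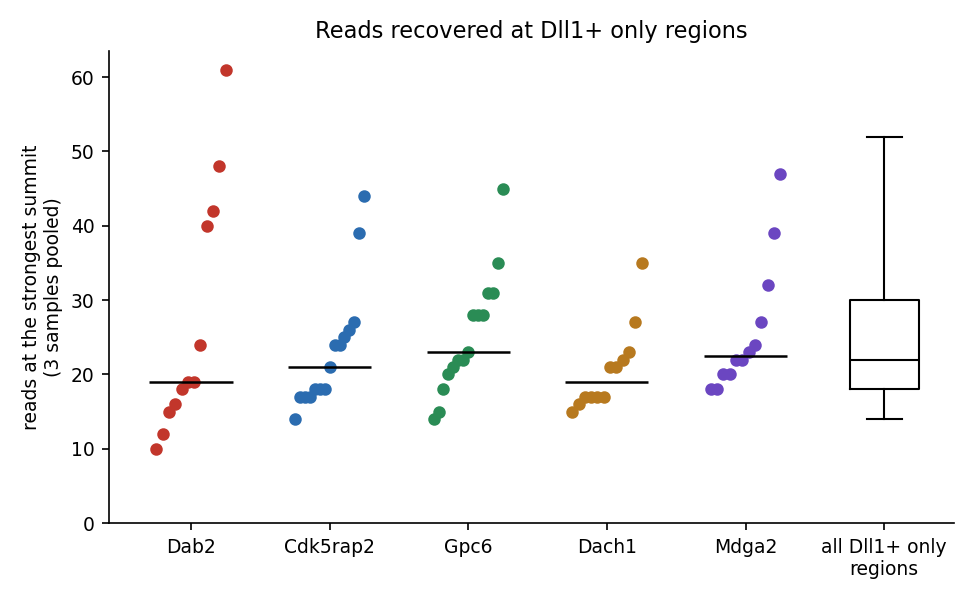
Reads at the strongest summit of each Dll1+ only region of the 5 genes (points, black line at the median) and of all Dll1+ only regions (box from the 25th to the 75th percentile, whiskers at the 5th and 95th). Gene medians lie between 19 and 23 reads, beside 22 for all Dll1+ only regions.

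Most of the 66 regions lay far from a TSS. Their median distance to the nearest protein-coding TSS was 203074 bp, against 34121 bp over all Dll1+ only regions, and the shared regions of the same genes were as distant (median 202377 bp). Only 16 of the 66 were within 50 kb. By annotation, 40 were in introns (60.6% against 53.8% over all Dll1+ only regions), 22 were intergenic (33.3% against 35.6%), and a promoter, a 5′ UTR, a 3′ UTR and a coding exon held 1 each. From the gene's 5′ end, 43 lay within the gene, 12 upstream and 11 beyond its 3′ end. The genes differed in this: all 15 at Gpc6 were within the gene, Dab2 had 6 upstream and 6 within, and Cdk5rap2 had 7 within, 7 beyond and 1 upstream. The nearest row of the Dll1- list was a median of 12973 bp away, against 3470 bp over all Dll1+ only regions, and 11 of the 66 had one within 1000 bp (16.7% against 26.4%).

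**Figure D3:**
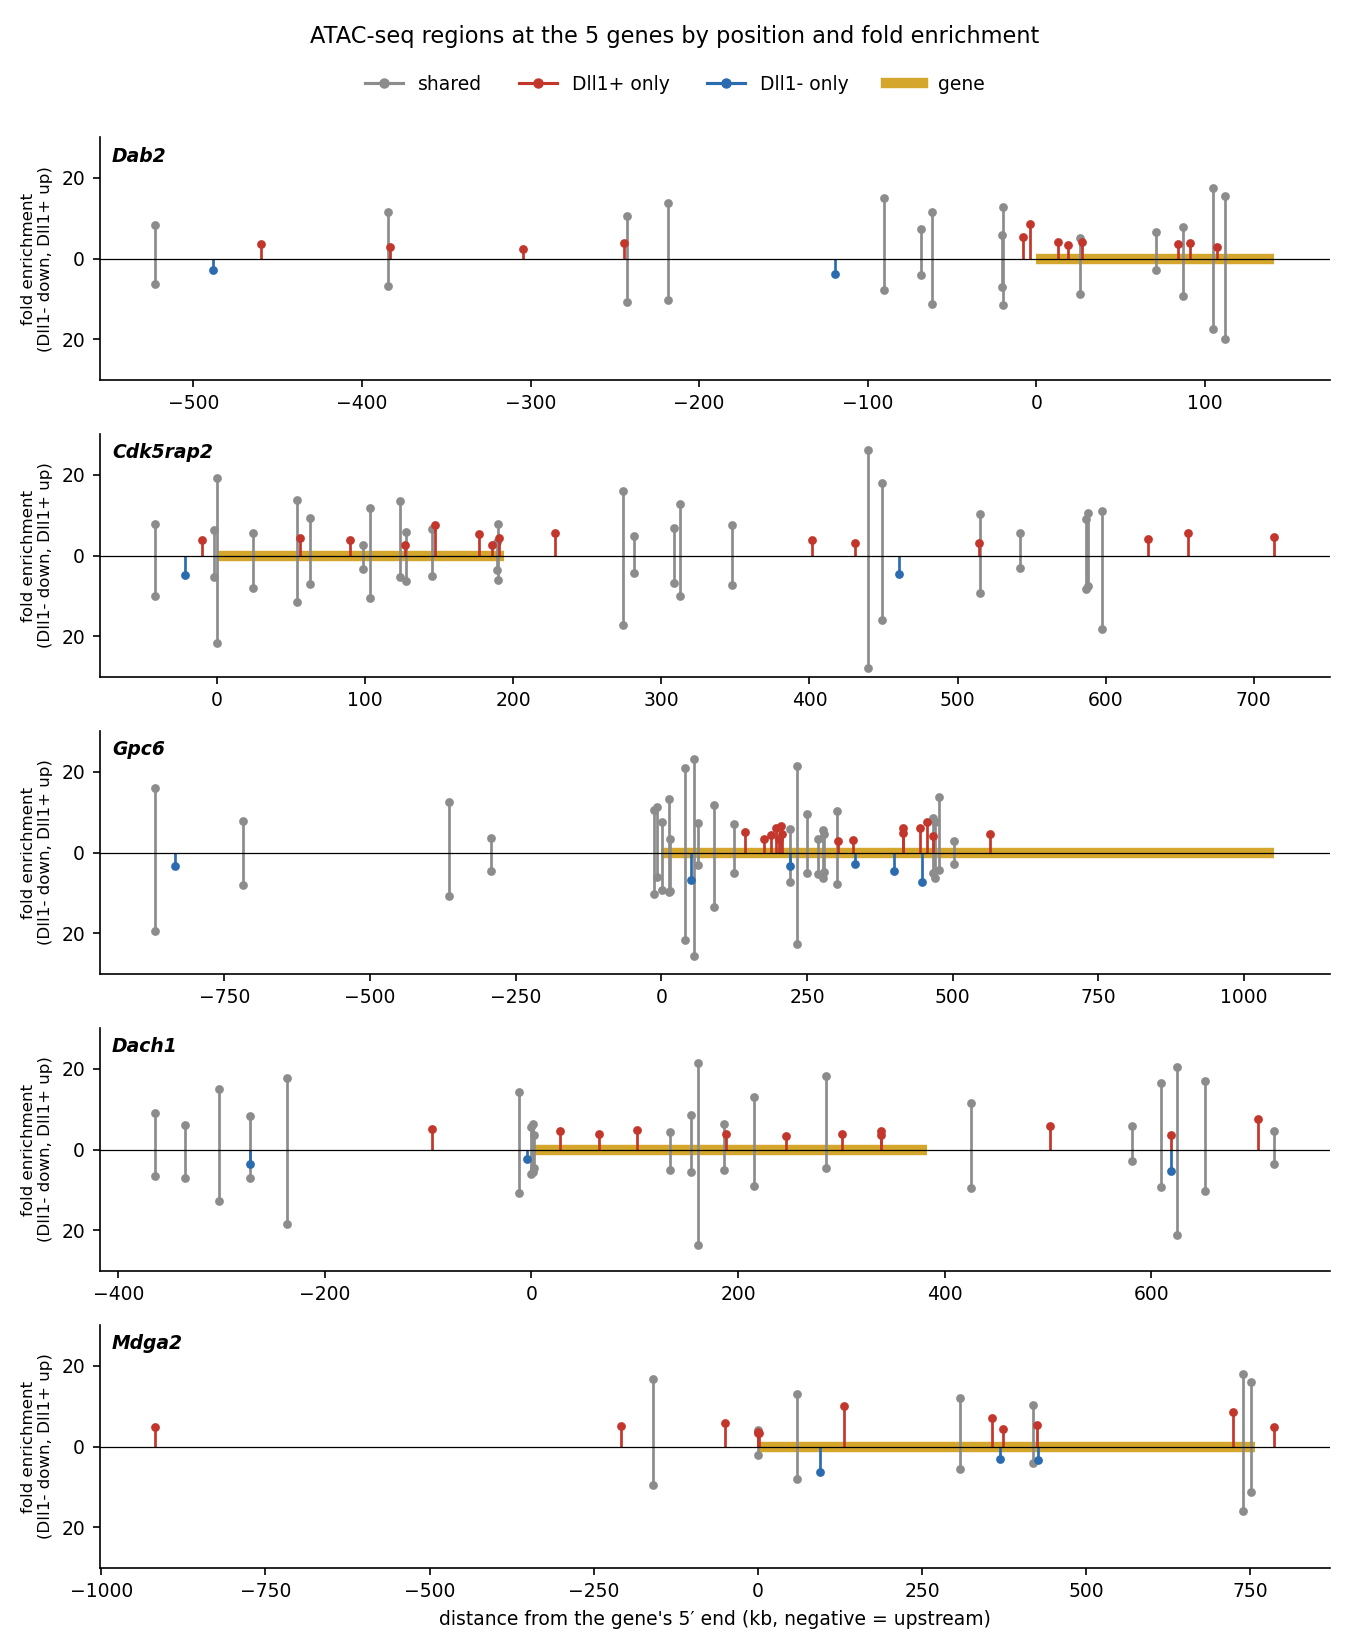
Fold enrichment of every region of the 5 genes (Dll1+ list upward, Dll1- list downward) by distance from the gene's 5′ end in kb, with the gene as a yellow bar, shared regions gray, Dll1+ only red and Dll1- only blue. The red regions are shorter than most gray ones, all 15 at Gpc6 lie inside the gene, and 7 at Cdk5rap2 lie beyond the gene's end.

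Dab2 (chr15:6299788-6440712, plus strand) showed Dll1+ only regions on both sides of its 5′ end. The strongest, chr15:6296034-6296388, lay 3577 bp upstream, with 40 reads and a fold of 8.65 (percentile 72.6). Next to it were chr15:6291676-6291959, at a fold of 5.28, and, inside the first part of the gene, chr15:6312755-6313178 at 4.22 and chr15:6318218-6318420 at 3.38. These 4 followed each other with no other region between them, over 26.7 kb. No region of either list covered the TSSs at the 5′ end of Dab2.

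The internal TSSs of Dab2, 86.8 kb into the gene, were open in both groups instead. The shared region chr15:6386173-6386972 covered 5 annotated TSSs, with folds of 7.92 in Dll1+ and 9.22 in Dll1-. The Dll1+ only region nearest to any Dab2 TSS, chr15:6383851-6384279, lay 2533 bp upstream of this group at a fold of 3.54. It, chr15:6391037-6391370 and chr15:6406888-6407099 lay on a raised local background of 11.2 to 21.4 reads, so their reads (42, 48 and 61) were high for folds of 3.54, 3.80 and 2.77. Further in, chr15:6403883-6404838 was near the top of both lists, at folds of 17.6 and 17.4. The shared region with the highest Dll1- fold, chr15:6411223-6411765, had 19.9 there and 15.4 in Dll1+.

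Among the 14 shared regions of Dab2, 7 ranked higher in Dll1+ and 7 in Dll1-. The largest difference toward Dll1+ was at chr15:6370358-6370738, with a fold of 6.54 against 2.81 (percentile 59.0 against 14.8). The largest in the other direction was at chr15:6325487-6326258, with 5.06 against 8.66 (percentile 43.5 against 76.7), and a Dll1+ only region lay 707 bp from it. Both Dll1- only regions of Dab2 were upstream, at 488261 bp and 119352 bp, with folds of 2.81 and 3.78.

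Cdk5rap2 (chr4:70216856-70410443, minus strand) had an open TSS in both groups and Dll1+ only regions along the gene and in the interval beyond it. The TSS region chr4:70410026-70410773 had folds of 19.2 and 21.6 and percentiles of 97.6 and 99.0. Its nearest Dll1+ only region, chr4:70420278-70420870, was 10131 bp upstream, at a fold of 3.80, and the other 14 were downstream of the TSS. The strongest, chr4:70262845-70263313 in an intron, had 39 reads and a fold of 7.65 (percentile 67.0). The next, chr4:69754652-69754886 at 5.70 and chr4:70182228-70182474 at 5.49, were intergenic, 656 kb and 228 kb from the 5′ end.

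The window of the second, chr4:69754656-69754856 on the plus strand, held a RUNX match at bases 112 to 118, and is shown because RUNX matches recurred at this gene.
Cdk5rap2 second: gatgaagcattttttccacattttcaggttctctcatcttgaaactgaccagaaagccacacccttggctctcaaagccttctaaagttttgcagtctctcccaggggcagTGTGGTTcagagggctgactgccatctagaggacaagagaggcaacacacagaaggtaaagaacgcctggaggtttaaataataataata

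The strongest region of all 174 was the shared region chr4:69970608-69971465, 439 kb from the Cdk5rap2 5′ end, with 26.2 and 27.7 (percentile 99.9 in both). Shared regions of Cdk5rap2 were split evenly, with 13 of 25 ranked higher in Dll1+. The largest difference toward Dll1+, at chr4:70286547-70286974, was a fold of 13.4 against 5.25 and 104 against 48 reads. The largest toward Dll1-, at chr4:70386263-70386539, was 5.49 against 8.05. The Dll1- only regions were chr4:69949687-69949970, at a fold of 4.63, and chr4:70431514-70431853, at 4.88, which lay in the annotated 3′ UTR of a neighboring gene.

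Gpc6 (chr14:116925315-117976544, plus strand) is 1051 kb long, and all of its Dll1+ only regions were intronic, from 142137 bp to 563039 bp past a TSS. The TSS region chr14:116925090-116927174, which covered 3 TSSs, was shared, with folds of 7.62 and 9.35. Between 143 kb and 207 kb into the gene, 7 regions in a row were Dll1+ only, over the 64.8 kb of chr14:117067932-117132703, with folds from 3.24 to 6.63. In the whole series this was the only run of 7, with 3 runs of 6 and 5 runs of 5, and no longer run of Dll1+ only regions was seen. Its regions are among those counted in choosing Gpc6, so the choice favored a long run there. The window of 1 of the 7, chr14:117127417-117127698 at a fold of 3.24, was 100% repeat, so its place is uncertain, and without it the run would hold 6. Dll1- only regions ran up to 10 in a row elsewhere in the genome. A second Gpc6 run of 3 lay at chr14:117339821-117369796, with folds from 4.85 to 6.12.

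The strongest Dll1+ only region of Gpc6 was chr14:117380639-117381131, with 35 reads and a fold of 7.60 (percentile 66.6). It was followed by chr14:117130268-117130660, at 6.63, and by chr14:117121956-117122398 and chr14:117340394-117340755, both at 6.12. Gpc6 also had the most Dll1- only regions of the 5 genes. Of these 6, chr14:117372526-117372937 had a fold of 7.32, lay 7701 bp from the strongest Dll1+ only region, and ranked higher in its own list (percentile 69.6). The others, at 3.42, 6.83, 3.42, 2.93 and 4.63, lay 834105 bp upstream of a TSS and 49403, 221008, 332161 and 398598 bp past one.

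Shared regions of Gpc6 differed in rank in both directions, and 10 of 25 ranked higher in Dll1+ (40%), near the 41% seen over all shared regions of the series. The highest fold was at chr14:116981391-116982159, with 23.2 and 25.6. At chr14:117402101-117402491 the fold was 13.6 in Dll1+ and 4.39 in Dll1- (80 and 35 reads). At chr14:116939571-116939932 it was 3.36 in Dll1+ and 9.50 in Dll1- (23 and 86 reads), the largest rank difference toward Dll1- at any of the 5 genes.

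Dach1 (chr14:97786853-98169765, minus strand) had shared regions over its TSS, and its Dll1+ only regions ran from 96114 bp upstream of it to 702880 bp downstream. The TSS region chr14:98169450-98170177 had folds of 5.60 and 6.12. The strongest Dll1+ only region was the repeat at chr14:97466451-97466876, 703 kb from the 5′ end, at 7.60. It was followed by chr14:97667884-97668116, at 5.91, and chr14:98265464-98265850, at 5.07. The nearest to the TSS was chr14:98141695-98142196, 27598 bp into the gene, with a fold of 4.64. It belonged to a run of 3 that also held chr14:98067297-98067980. A second run of 3 held chr14:97868667-97868902 and included the 1 region over a coding exon, chr14:97831148-97831529, at 3.64.

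The shared region with the largest rank difference toward Dll1+ at any of the 5 genes was in a Dach1 intron, at chr14:97884385-97884830. It held 85 reads at a fold of 18.2 in Dll1+ (percentile 96.7) and 36 reads at 4.51 in Dll1- (percentile 44.0), although the Dll1- background was the deeper. Of the 21 shared Dach1 regions, 14 ranked higher in Dll1+. The highest fold, at chr14:98008219-98009129, was 21.3 and 23.5, and the largest difference toward Dll1- was at chr14:98167219-98167720, at percentile 21.1 against 43.6. The 3 Dll1- only regions had folds of 5.24, 2.38 and 3.54. The second of them, chr14:98173919-98174160, lay 4496 bp upstream of the TSS, and the first lay 414 bp from a Dll1+ only region.

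Mdga2 (chr12:66466060-67222549, minus strand) was the gene at which the TSS at the 5′ end was in a Dll1+ only region. The region chr12:67222468-67222995 covered that TSS with 20 reads and a fold of 3.59 (percentile 23.2). Beside it were the Dll1+ only regions chr12:67221937-67222239, at 3.28 in the 5′ UTR, and chr12:67220559-67220855, at 3.24. Between these lay the shared region chr12:67221430-67221860, with a fold of 4.07 in Dll1+ and 2.07 in Dll1- (23 and 16 reads). The Dll1+ only regions were 607, 76 and 574 bp from it, in the order named, so they may be parts of a single open stretch. All 4 were among the weaker rows of the Dll1+ list, at or below percentile 30.5.

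The 250 bases before the TSS, chr12:67222550-67222799 on the minus strand, are given from the RefSeq promoter table for GRCm38, in which 4 of the 5 genes had an entry. They were 65.6% G or C with 15 CG pairs, and held no match to the searched consensus sequences, so there are no capitals. The summit window of the Dll1+ only region over this TSS, which is not printed, held a STAT5 match.
Mdga2 promoter: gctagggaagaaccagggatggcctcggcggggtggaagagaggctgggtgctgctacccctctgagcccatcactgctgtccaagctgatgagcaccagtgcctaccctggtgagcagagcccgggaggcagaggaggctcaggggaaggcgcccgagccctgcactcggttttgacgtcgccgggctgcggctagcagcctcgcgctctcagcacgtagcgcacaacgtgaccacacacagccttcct

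Mdga2 also had the strongest Dll1+ only region of the 66, chr12:67090284-67091004 in an intron, with 47 reads and a fold of 9.95 (percentile 78.7). The next were chr12:66499326-66499606, at 8.44, and chr12:66866185-66866551, at 6.97. An internal TSS 751 kb into the gene was covered by the shared region chr12:66470683-66471869, with 16.0 in Dll1+ and 11.2 in Dll1-. The 3 Dll1- only regions, chr12:66796089-66796357, chr12:66853309-66853504 and chr12:67127463-67127798, had folds of 3.42, 3.17 and 6.22, and the first lay 281 bp from a Dll1+ only region.

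All 7 shared regions of Mdga2 ranked higher in the Dll1+ list, by a median of 15.3 percentile points. Among them, the window of chr12:67382357-67383186 was 97.5% repeat, so the place of that region is uncertain. The smallest difference was at the strongest, chr12:66483480-66484236, with folds of 17.8 and 16.0. The largest was at chr12:66803121-66803787, with 10.3 against 4.02 and 53 against 32 reads. Shared regions were not used in choosing the genes, but they come from the same pooled lists, which differ in length and depth, and are given without a test. Over the 5 genes 51 of 92 shared regions (55.4%) ranked higher in Dll1+, against 41% of the 79153 shared regions of the series. The median difference was 1.58 percentile points at the 5 genes and -1.67 over the series.

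**Figure D4:**
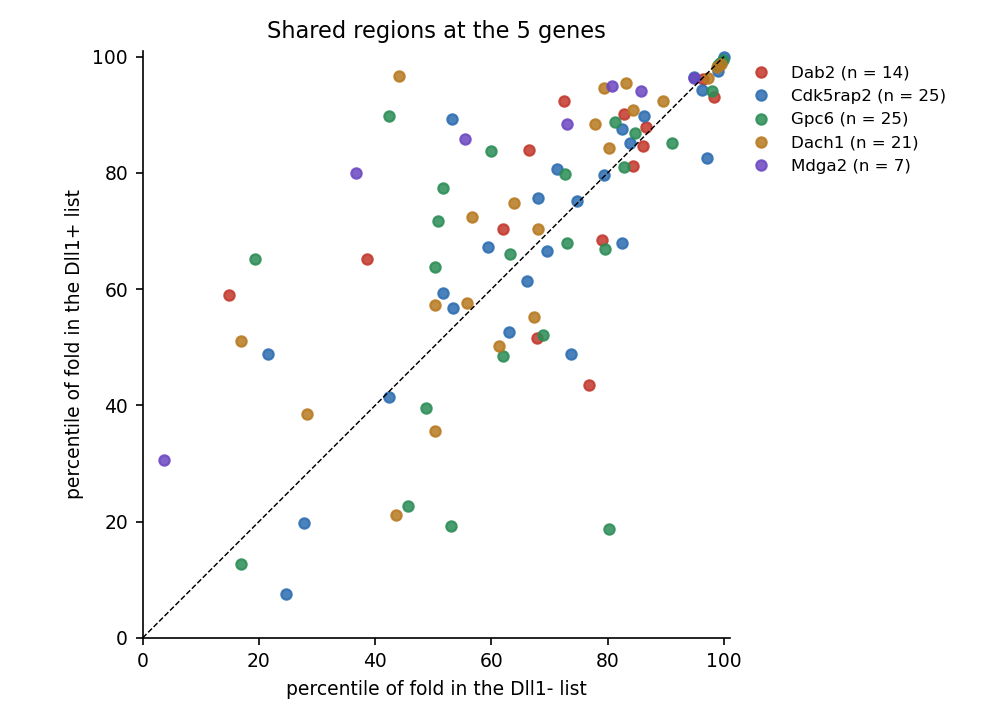
Percentile of fold within the Dll1+ list against that within the Dll1- list for the 92 shared regions of the 5 genes, with a dashed line at equal rank. All 7 Mdga2 points lie above the line, as do 14 of 21 Dach1 points, while 10 of 25 Gpc6 points do.

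The shared regions at which rank differed most toward Dll1+ at Cdk5rap2, Gpc6 and Dach1 are shown for comparison with the Dll1+ only windows. Their windows lie at chr4:70286657-70286857, chr14:117402205-117402405 and chr14:97884512-97884712, on the plus strand. The Cdk5rap2 and Dach1 windows held the same SOX match, and the Gpc6 window a GRHL match, in capitals.
Cdk5rap2 shared: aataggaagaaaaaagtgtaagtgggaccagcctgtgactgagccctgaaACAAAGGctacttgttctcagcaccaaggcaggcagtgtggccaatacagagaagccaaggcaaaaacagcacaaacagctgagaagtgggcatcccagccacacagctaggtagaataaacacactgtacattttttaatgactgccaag
Gpc6 shared: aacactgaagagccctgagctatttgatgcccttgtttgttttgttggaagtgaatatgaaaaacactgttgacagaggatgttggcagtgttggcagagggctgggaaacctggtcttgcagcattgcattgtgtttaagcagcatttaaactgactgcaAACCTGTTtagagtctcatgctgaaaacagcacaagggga
Dach1 shared: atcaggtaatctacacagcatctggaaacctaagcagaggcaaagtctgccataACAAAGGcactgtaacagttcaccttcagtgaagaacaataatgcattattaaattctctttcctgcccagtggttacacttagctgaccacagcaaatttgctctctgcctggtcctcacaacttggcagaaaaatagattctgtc

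Consensus sequences were searched on both strands of the 201-base windows, for 16 kinds of factor. For AP-1 either TGACTCA or the related TGAGTCA was accepted, for TEAD the letters CATTCC, and for FOX the letters TGTTTAC. For RUNX either TGTGGTT or the related TGCGGTT was accepted, and for SOX either ACAAAGG or the related ACAATGG. The GRHL consensus was AACNGGTT, that of GATA was AGATAAG, that of STAT5 was TTCCNGGAA and that of ETS was CCGGAAG. For RBPJ either CGTGGGAA or the related TGTGGGAA was accepted. Longer consensus sequences were used for NF-kB, CTCF, p63, NF1, steroid receptors and the estrogen receptor. A match is a description of the letters and does not show binding. Of the 66 Dll1+ only windows, 30 held none.

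RUNX matches were in 9 of the 66 windows (13.6%, 95% Wilson interval 7.34 to 23.9%), against 7.32% of all Dll1+ only windows and 5.92% of all regions. Cdk5rap2 held 5 of the 9, in 15 windows, and Dach1 held none in 12. SOX matches were also in 9 (13.6% against 12.7% of all Dll1+ only windows and 10.5% of all regions). TEAD matches were in 6 (9.09%, interval 4.23 to 18.4%), against 17% and 14.8%. AP-1 matches were in 5 (7.58%, interval 3.28 to 16.5%), against 4.4% and 18.1%, whereas 5 of the 16 Dll1- only windows held one (31.2% against 30.4% of all Dll1- only windows).

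Matches for RBPJ, the DNA-binding partner of activated Notch, were in 3 windows (4.55% against 2.15% of all Dll1+ only windows), 1 each at Cdk5rap2, Gpc6 and Dach1. NF-kB matched in 1 window, at Cdk5rap2 (1.52% against 2.03%), and p63 in 7 (10.6% against 8.84%). FOX matched in 3 (4.55% against 5.91%), GRHL in 2 (3.03% against 3.13%) and GATA in 2 (3.03% against 1.73%). ETS, STAT5 and the estrogen receptor matched in 1 each (1.52%, against 1.17%, 1.13% and 0.0465% of all Dll1+ only windows), with CTCF, NF1 and steroid receptors in 0, for which the Wilson interval reaches 5.50%. The intervals cover counting error only, and windows of 1 gene are not independent. The TEAD and AP-1 intervals held the share over all Dll1+ only windows, and the RUNX interval began just above it, with most of the RUNX windows at Cdk5rap2 alone. No allowance was made for the 16 kinds of factor searched.

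**Figure D5:**
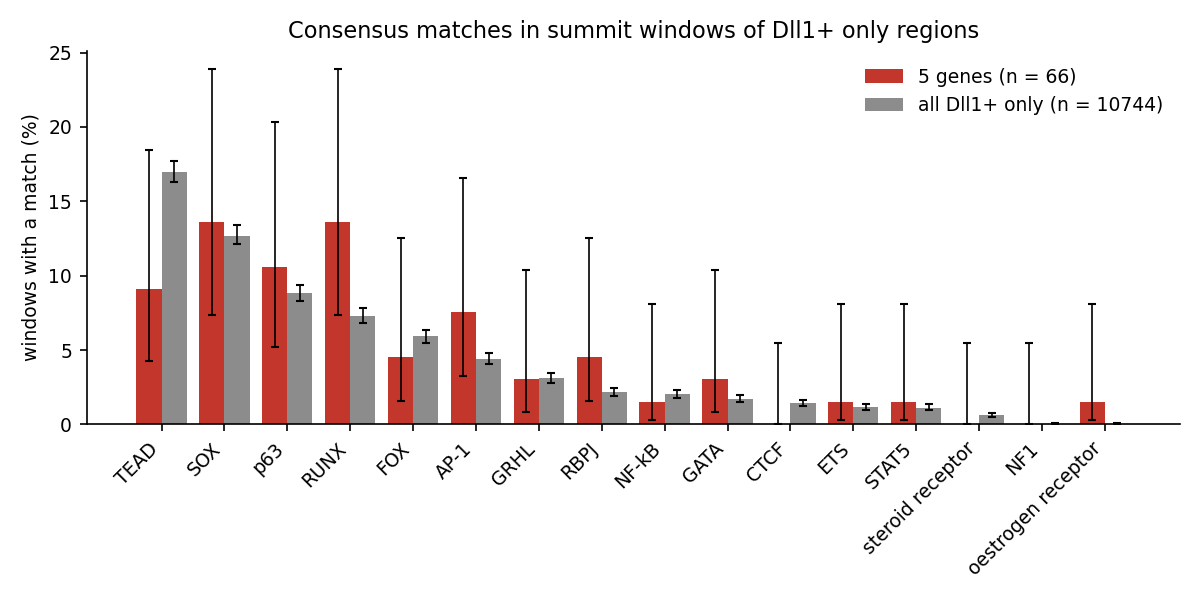
Share of 201-base summit windows (%) with a consensus match among Dll1+ only regions, for the 5 genes (red, n = 66) and for all Dll1+ only regions (gray, n = 10744), with 95% Wilson intervals as bars. RUNX matched in 13.6% against 7.32%, with 5 of its 9 windows at Cdk5rap2, and TEAD in 9.09% against 17%, a share that lies inside the TEAD interval.

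In base composition the Dll1+ only windows of the 5 genes had a median of 43.3% G or C, against 46.8% over all Dll1+ only windows. Dach1 was lowest at 38.3%. Region width was close to that of all Dll1+ only regions (median 317 against 299 bp), and 7 of the 66 had several summits. A local background above 1.5 times the genome-wide one was seen at 9 of the 66 (13.6% against 25.5%), 3 each at Dab2, Cdk5rap2 and Gpc6.

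The stretch over which the TSSs of a gene were the nearest protein-coding ones was 0.644 Mb for Dab2, 0.790 Mb for Cdk5rap2, 1.48 Mb for Gpc6, 1.24 Mb for Dach1 and 1.81 Mb for Mdga2. Regions of any kind were as dense as over the covered genome (46.6 per Mb) at Dab2 (43.5) and Cdk5rap2 (53.1), and sparser at Gpc6 (31.1), Dach1 (29.1) and Mdga2 (12.1). Dll1+ only regions were denser than the 4.20 per Mb of the genome at all 5, from 6.62 at Mdga2 to 19.0 at Cdk5rap2. Dll1- only regions were sparser than the 11.5 per Mb of the genome at all 5, from 1.65 at Mdga2 to 4.05 at Gpc6. Both of these densities come from the counts by which the genes were chosen, so they add no separate evidence.

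The next protein-coding genes on either side were mixed. Brinp1, on the far side of the interval beyond Cdk5rap2, had 6 Dll1+ only regions and 1 Dll1- only. Megf9 had 0 and 5. Rps29, on the other side of Mdga2 from Rpl10l, had 6 and 2, while Rpl10l had 2 and 1. Rpl36a-ps1 and Klhl1, beside Dach1, had 3 against 2 and 2 against 2. Around Gpc6 the balance was the reverse, with 3 against 9 at Gpc5, the glypican gene next to it, and 3 against 13 at Dct. Ptger4 and C9, beside Dab2, had 2 against 5 and 1 against 2. Between the flanking TSSs on either side, whichever gene a region fell to, the counts were 14 against 7 around Dab2, 20 against 3 around Cdk5rap2, 17 against 7 around Dach1 and 18 against 5 around Mdga2. Around Gpc6 they were 19 against 22, so its excess was not seen over the whole interval. Over the 10 flanking genes 28 of 173 regions were Dll1+ only (16.2%) and 42 Dll1- only (24.3%).

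Genes of related function were counted in 5 lists, leaving out the 5 genes themselves. In these lists 6.48% to 14.3% of regions were Dll1+ only and 20.2% to 28.7% were Dll1- only, beside 9.01% and 24.6% over the series. Of 21 other endocytic adaptor genes, 0 had more Dll1+ only than Dll1- only regions and 16 had fewer, with 15 against 52 regions in all. Dab1, the closest relative of Dab2, had 2 of each. Of 21 other centrosome and microcephaly genes 2 had more and 11 fewer (7 against 31 regions), and Pde4dip, the relative of Cdk5rap2, had 2 against 0. Of 21 other glypican, syndecan and heparan sulfate genes 1 had more and 17 fewer (38 against 102), the exception being Gpc4 with 6 against 5.

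Among 13 other retinal determination genes 3 had more and 6 fewer (13 against 25 regions). Of the Eya genes, which encode partners of Dach1, Eya1 had 2 against 0 and Eya3 had 1 against 0, while Eya2 had 2 against 5 and Eya4 had 3 against 4. Dach2 had neither kind. In the neurexin and neuroligin group 2 of 7 other genes had more and 3 fewer (16 against 27). Mdga1, the relative of Mdga2, had 4 against 3, and Nrxn3 had 0 against 7.

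The cell type of both groups was described through regions over the TSSs of marker genes. All 10 luminal epithelial genes had one in both lists, at median percentiles of 69.6 in Dll1+ and 74.2 in Dll1-. Of 5 basal genes, Acta2 and Oxtr had one in both lists, and Krt5, Krt14 and Trp63 in neither. Among immune genes 0 of 6 in Dll1+ and 1 of 6 in Dll1- (Csf1r) had one. Among endothelial genes Kdr alone of 5 had one, in both lists. Of 6 fibroblast genes, Pdgfra had one in both lists and Col1a2 and Pdgfrb in the Dll1- list alone. The part of other cell types in the regions at the 5 genes was not tested, and a larger share of cells with an open region cannot be told apart from wider opening per cell.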

How the data were processed

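ATAC-seq of Dll1+ (n = 3) and Dll1- (n = 4) tumor cells had been processed by the authors with the ENCODE ATAC-seq pipeline, replicates of a group together, and the optimal peak list of each group was deposited (132872 and 148923 rows). Aligner, peak caller and thresholds are not given in the sources used here. The deposited fold enrichment was read as the ratio of summit reads to local background with 1 added to each, and the deposited −log10 p-value is the authors' own. Both describe pooled samples. The submitters' processing notes name mm10 and GRCm38, and 0 rows passed a chromosome end.

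Rows of both lists that overlapped or touched were merged, and midpoints were assigned to the nearest protein-coding TSS (GENCODE M21). A shared region has rows of both lists. A percentile is the mean rank of the highest fold of a region among all rows of its list. Reads and backgrounds were recovered from fold and p-value under a Poisson model (tolerance 0.002, all rows but 4). Promoters reached from 1000 bp before a TSS to 100 bp after it. Sequence came from GRCm38.p6. Region calling, gene assignment and read recovery were tested on simulated data. Python 3.11.15, pandas 2.3.3 and scipy 1.17.1 were used.

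The members and lists were chosen with earlier results of these data known. Regions named per gene were those over a TSS, the 3 strongest and the nearest Dll1+ only, every Dll1- only, the strongest shared, and the shared with the largest rank difference in each direction. Alternatives covered overlap, thresholds, depth and TSS choice. Rank was also taken by p-value and motifs in 50 bp each side of the summit. Intervals cover counting error only. Some genes of the related and marker lists are not reported here.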

Additional observations from a re-analysis of the deposited data

How the results depend on the processing

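No paired analysis was possible because each list pooled its samples, and no replicate could be left out. The counts were Dll1+ only regions unless stated, in the order Dab2, Cdk5rap2, Gpc6, Dach1 and Mdga2. With rows at or above the median fold of each list, they were 3, 2, 7, 4 and 5 (21 in all, against 11 Dll1- only, and 6830 against 15219 over the series). With that threshold on one-list regions alone they were 1, 2, 5, 2 and 4, or 14, against 4 Dll1- only (1656 against 6546 over the series). Within 50 kb of the TSS, Cdk5rap2 had 1, Gpc6 0 and Dach1 1, each against 1 Dll1- only, so no excess was seen there. Dab2 had 8 and Mdga2 6, each against 0, and in all 16 stood against 3 (6419 against 19257 over the series). The 6 at Mdga2 included the weak regions beside a shared region at its 5′ end, at most 607 bp from it. When TSSs of all genes competed, Dab2 had 5, Cdk5rap2 1, Dach1 0 and Mdga2 4, and 24 stood against 6, because non-coding genes and pseudogenes took regions. Of these, Gpc6 held 14 against 5, and at Dach1 the excess was lost (0 against 1). A reciprocal overlap of 50% gave 26 Dll1- only regions, beside 73 Dll1+ only. Other settings kept each gene's count within 1.5 times, and in total gave 67 for summits within 100 bp, 67 for equal numbers of rows, 67 with the Dll1- list scaled to the Dll1+ depth, and 60 with gene 5′ ends only. The equal-row and depth-scaled settings removed rows of the Dll1- list, so they could not lower the Dll1+ only counts. Dll1- only counts of single genes moved by more than 1.5 times in 19 of 45 cases, 3 higher and 16 lower. Ranked by −log10 p the median percentile of the 66 regions was 26.6. AP-1 matches within 50 bp of the summit were in 3.03% of windows, against 2.69% of all Dll1+ only windows. Reads were few, with 10 to 61 behind each Dll1+ only region, and beyond the scaling above a part of depth in the calls was not tested.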
